A study of Gallus gallus with 2 samples.

Results

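PHF20 and PHF20L1 are paralogous nuclear proteins that bind methylated lysines, and their splicing was followed in chicken DT40 cells with and without the splicing factor SRSF10. Every event listed under either gene name was taken from the deposited table of alternative splicing, which gave 13 events of the 10319 in the table, 12 in PHF20 and 1 in PHF20L1. The genes were chosen by their exclusion and inclusion read counts in these libraries, so the levels made from those counts are described here and not tested. DT40 is a line of chicken B lymphoblasts from the bursa. Poly(A) RNA of wild-type DT40 cells and of SRSF10-deficient DT40 cells (SRSF10-/-) was sequenced, with 1 library per genotype and no treatment named in the labels. No value below therefore has a replicate check, and each difference is between 2 libraries. The labels do not say whether the deficient cells were 1 clone.

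PHF20 is known from human cells as a subunit of the NSL complex, in which the acetyltransferase KAT8 acetylates histone H4, and as a reader of methylated p53. PHF20L1 is known from human cells to bind monomethylated lysine, among others on the DNA methyltransferase DNMT1. Both proteins carry Tudor domains, which fold into an aromatic cage around a methylated lysine, and a PHD finger. SRSF10 belongs to the serine/arginine-rich proteins, which bind pre-mRNA and change the use of nearby splice sites. A cassette exon is kept or skipped as a whole, so skipping an exon whose length is a multiple of 3 leaves the downstream reading frame as it was.

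For each event the table listed the reads that support exclusion and the reads that support inclusion. The inclusion level is the inclusion reads as a percent of both, with a 95% Clopper-Pearson interval that covers counting error only, and differences are the deficient minus the wild-type library in percentage points, with a 95% Newcombe interval. A count of 0 is also given with the share that 3 reads of the event's total would make, a limit that differs slightly from the interval's bound. The table held 2047679 event reads for the wild-type and 2022414 for the deficient library, and the sequencing depth itself is unknown here. SRSF10 had 0 rows, so the genotype could not be checked from its own gene. Of the B-lymphocyte markers looked for, 12 of 17 had rows (7665 and 8426 reads in the wild-type and deficient libraries), including EBF1, CD79B and PTPRC, against 2 of 5 T-lymphocyte markers, CD3D and CD8A (149 and 867 reads), and 0 of 3 fibroblast collagens. PAX5 had no row, but a gene without an alternative event has none in such a table.

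The single PHF20L1 event was a 219 nt cassette exon that was mostly kept in wild-type cells and mostly skipped without SRSF10. It lies on chromosome 2 from 141308382 to 141308600 of the galGal4 build. In the wild-type library 241 reads supported inclusion and 40 supported exclusion, an inclusion level of 85.8% (81.1 to 89.6). In the deficient library 88 reads supported inclusion and 134 supported exclusion, a level of 39.6% (33.2 to 46.4). The intervals did not overlap, and the difference was -46.1 points (-53.3 to -38.1). Both kinds of read moved in opposite directions: exclusion reads were 3.35 times as many in the deficient library (2.34 to 4.90), while inclusion reads were 0.365 times as many (0.283 to 0.468). In bulk RNA a lower level in all cells and a loss in part of the cells cannot be told apart.

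Among the 969 cassette exons covered by 100 or more reads per library, no other had so wide a difference in either direction. Among all 2175 cassette exons covered by 20 or more reads per library, 4 had a difference at least as wide, the PHF20L1 exon included, and 2 of these 4 were lower in the deficient library. PHF20L1 was chosen for these values, so nothing is read from either rank. The median absolute difference of these 2175 exons was 3.16 points. The authors' deposited table gave the PHF20L1 exon an adjusted p of 1.84e-13. Like their other adjusted p-values below, it comes from the same 2 libraries by which the genes were chosen. It has no replicate behind it, and nothing is read from it. Of the 10319 events, 172 (1.67%) had one under 0.05, among them 3 of the 13 PHF20 and PHF20L1 events.

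**Figure D1:**
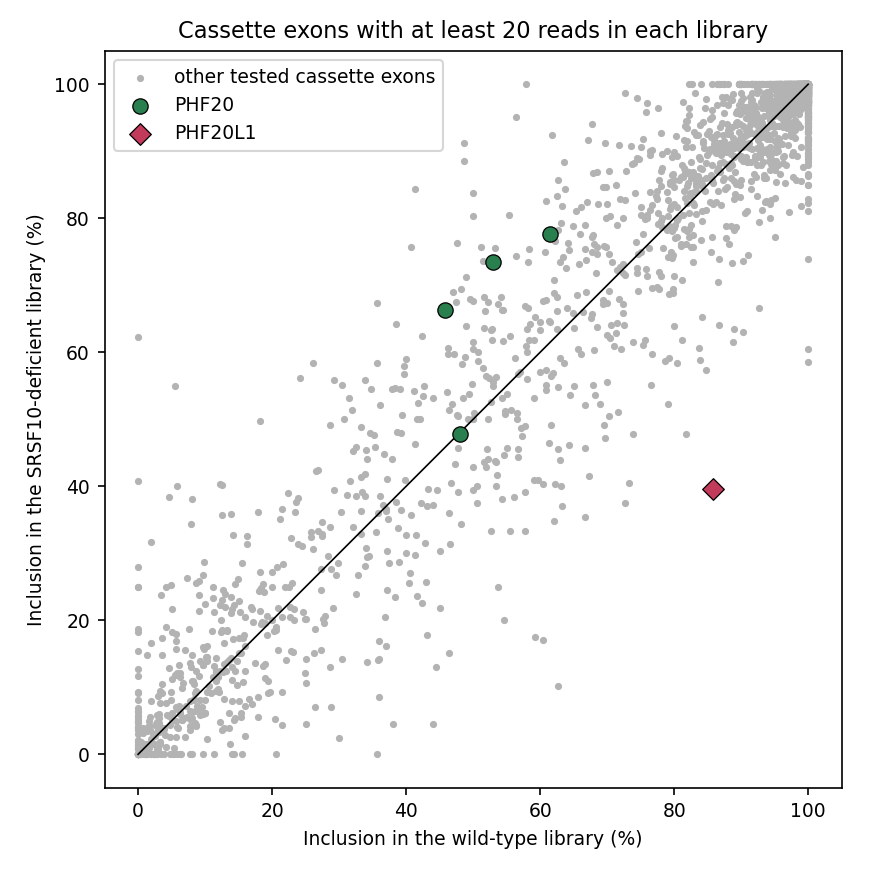
Inclusion level in the wild-type library (x axis, %) against the SRSF10-deficient library (y axis, %) for the 2175 cassette exons covered by 20 or more reads per library, 1 point per exon, with the line of equal levels. The PHF20L1 exon (diamond) lies far below the line at 85.8% and 39.6%, and 3 of the 4 PHF20 exons (circles) lie above it.

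PHF20 had 4 cassette rows, and 3 of them were included more often in the deficient library, the opposite direction to PHF20L1. The first of these was a 129 nt exon (chromosome 20, 930580 to 930708). Its wild-type reads were 55 for inclusion and 65 for exclusion, a level of 45.8% (36.7 to 55.2). Its deficient reads were 134 for inclusion and 68 for exclusion, a level of 66.3% (59.4 to 72.8). The intervals did not overlap, and the difference was 20.5 points (9.32 to 31.1). Exclusion reads hardly differed, at 1.05 times the wild-type number (0.734 to 1.49), and inclusion reads were 2.44 times as many (1.77 to 3.40). The authors' deposited table gave this exon an adjusted p of 0.00204.

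The next pair of cassette rows shared a start at 934963 on chromosome 20 and ended at 935008 or at 935033, so they are a 46 nt and a 71 nt form of an exon that differ by 25 nt at one end. Both rows listed the same exclusion reads, 62 in the wild-type and 46 in the deficient library, and so are not independent. Each level sets a form's inclusion reads against these exclusion reads only and leaves out reads listed only for the other form. The levels are therefore not the forms' shares of all transcripts and cannot be added. Whether the rows also share inclusion reads is not stated. The 46 nt form had 70 and 127 inclusion reads, a level of 53.0% (44.2 to 61.8) in the wild-type and 73.4% (66.2 to 79.8) in the deficient library. The 71 nt form had 99 and 160 inclusion reads, with levels of 61.5% (53.5 to 69.0) and 77.7% (71.4 to 83.2). Neither form's intervals overlapped between the libraries, and the differences were 20.4 points (9.49 to 30.8) and 16.2 points (6.73 to 25.4). In both forms more inclusion reads and fewer exclusion reads were listed without SRSF10. The authors' deposited table gave both forms an adjusted p of 0.133, above 0.05.

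The remaining cassette exon of PHF20 had the same level in both libraries within counting error. This 177 nt exon (chromosome 20, 915527 to 915703) was listed with 63 inclusion and 68 exclusion reads in the wild-type library and with 74 and 81 in the deficient library. The levels were 48.1% (39.3 to 57.0) and 47.7% (39.7 to 55.9), and the difference of -0.35 points had an interval from -11.8 to 11.1, so a change of about 10 points either way was within counting error at this depth. It started at nearly the same wild-type level as the 129 nt exon, whose intervals did not overlap.

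**Figure D2:**
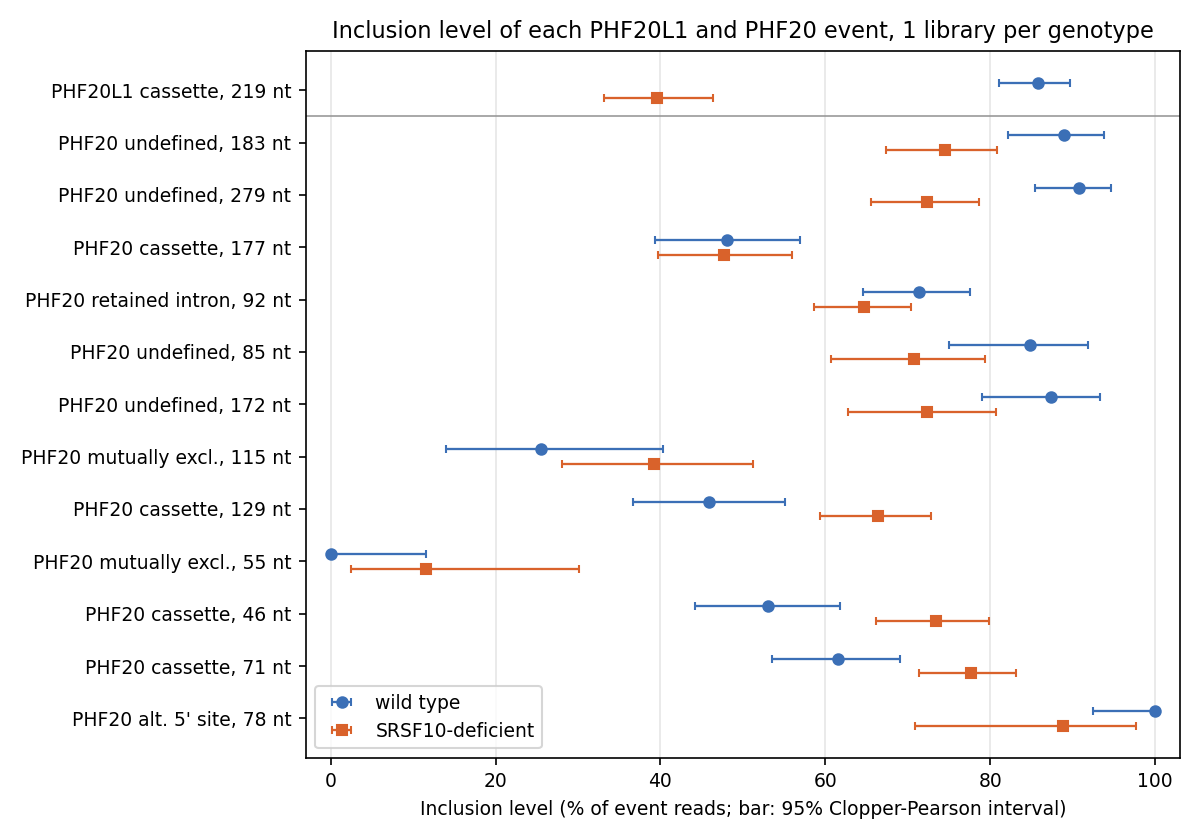
Inclusion level (x axis, % of event reads) of the PHF20L1 event and the 12 PHF20 events in order of position, with circles for the wild-type and squares for the SRSF10-deficient library and bars for 95% Clopper-Pearson intervals. The PHF20L1 exon and the 183 nt and 279 nt PHF20 regions are lower in the deficient library, and the 129 nt, 46 nt and 71 nt PHF20 exons are higher, with bars that do not overlap.

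PHF20 also had 4 rows that the table calls undefined, a class with no stated isoform structure, and all 4 had a lower inclusion level in the deficient library. A 279 nt region (chromosome 20, 906237 to 906515) had 158 inclusion and 16 exclusion reads in the wild-type library and 139 and 53 in the deficient library. Its level was 90.8% (85.5 to 94.7) and 72.4% (65.5 to 78.6), a difference of -18.4 points (-26.0 to -10.6). A 183 nt region (899370 to 899552) had 113 inclusion and 14 exclusion reads against 129 and 44, with levels of 89.0% (82.2 to 93.8) and 74.6% (67.4 to 80.9). The difference there was -14.4 points (-22.6 to -5.53). In neither region did the intervals overlap. The authors' deposited table gave the 279 nt region an adjusted p of 0.0177 and the 183 nt region one of 0.0866.

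The other undefined rows, an 85 nt region (920919 to 921003) and a 172 nt region (921220 to 921391), lie 216 nt apart and listed the same exclusion reads, 12 in the wild-type and 29 in the deficient library. Their inclusion reads were 67 and 70 for the 85 nt region, and 83 and 76 for the 172 nt region. Levels were 84.8% (75.0 to 91.9) and 70.7% (60.7 to 79.4) for the former, and 87.4% (79.0 to 93.3) and 72.4% (62.8 to 80.7) for the latter. Those intervals overlapped between the libraries, although the intervals of the differences, -25.6 to -1.64 and -25.6 to -3.80 points, left out 0. Across the 4 undefined rows, exclusion reads were 2.42 to 3.31 times as many in the deficient library, while inclusion reads were 0.880 to 1.14 times as many. In the 3 cassette rows that were higher, inclusion reads were 1.62 to 2.44 times as many and exclusion reads 0.742 to 1.05 times. Since undefined rows have no stated isoform structure, these ratios cannot be set against theirs. Undefined rows can list nearly equal numbers for exclusion and inclusion, which 21.0% of the 1545 undefined events covered by 20 or more reads per library did in both libraries (within 10% of each other), but 0 of the 4 PHF20 rows did.

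**Figure D3:**
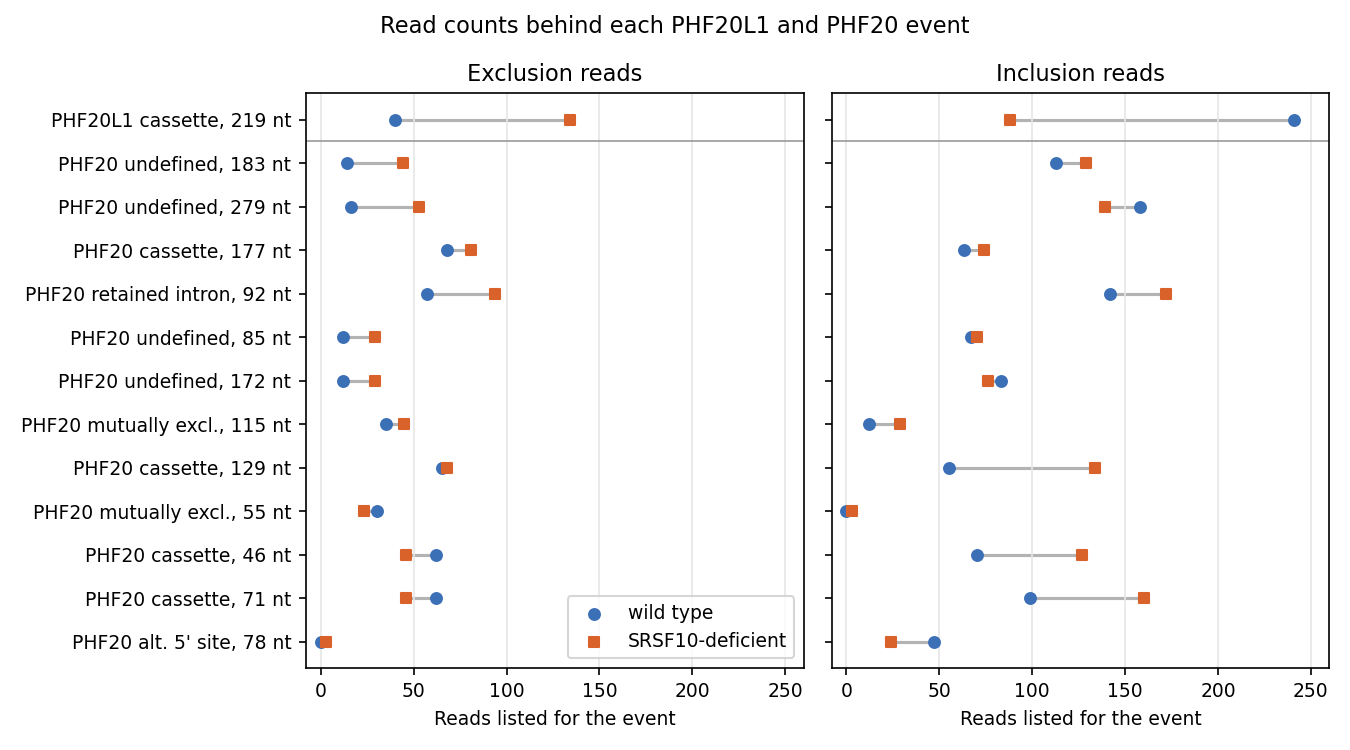
Exclusion reads (left) and inclusion reads (right) listed for the PHF20L1 event and the 12 PHF20 events, with circles for the wild-type and squares for the SRSF10-deficient library joined by a line. In PHF20L1 both counts moved, in the undefined PHF20 rows mainly the exclusion reads, and in the 129 nt, 46 nt and 71 nt PHF20 exons mainly the inclusion reads.

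The last 4 PHF20 rows differed by amounts within counting error or rested on few reads. The 92 nt retained intron (916930 to 917021) had a listed inclusion of 71.4% (64.5 to 77.5; 199 reads) and 64.7% (58.6 to 70.4; 266 reads), and the table does not state which reads count as retention. A 115 nt mutually exclusive exon (927448 to 927562) stood at 25.5% (13.9 to 40.3; 47 reads) and 39.2% (28.0 to 51.2; 74 reads). Its inclusion reads, 12 and 29, equal the exclusion reads of the 85 nt and 172 nt regions, so these 3 rows list an identical pair of numbers and were counted as 1 set below. A 55 nt mutually exclusive exon (932397 to 932451) had 0 of 30 inclusion reads in wild-type cells (0 to 11.6%; the 3-read limit is 10%), and 3 of 26 in the deficient library, 11.5% (2.45 to 30.2). The alternative 5' splice site (938465 to 938543, sites 78 nt apart) had 47 of 47 inclusion reads in the wild-type library (92.5 to 100%; the 3-read limit for exclusion is 6.38%), and 24 of 27 in the deficient library, 88.9% (70.8 to 97.6).

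Events covered by 20 or more reads per library were counted as past the threshold when they differed by at least 10 points and their intervals did not overlap. Of the 6089 such events in the table, 307 (5.04%) were past it, 163 (2.68%) higher and 144 (2.36%) lower in the deficient library. All 13 PHF20 and PHF20L1 events had enough reads, and 6 were past the threshold, 3 higher and 3 lower, from which nothing is read since the genes were chosen for these values. By type, 3 of the 4 PHF20 cassette rows and the PHF20L1 exon were past it, against 6.57% of all cassette exons (3.49% higher, 3.08% lower). Of the undefined rows, 2 of the 4 were past it, against 0.712% of all undefined events (0.518% lower), 11 in number. With rows that list an identical pair of numbers counted once, PHF20 had 9 sets of rows, 4 of them with a row past the threshold. Other sharing of reads between rows was not looked for, so these sets need not be independent. The median absolute difference was 14.3 points over the 12 PHF20 rows and 2.36 points over all 6089 events. A chi-square between the libraries was computed only for events whose expected counts were large enough for it. Its median was 3.97-fold that of counting alone over 1057 such cassette exons, and 0.162-fold over 1150 such undefined events. With intervals widened by the factor of each event type where it was above 1, an alternative chosen after seeing the data, 3 of the 13 events remained past the threshold, namely the PHF20L1 exon and the 183 nt and 279 nt PHF20 regions, whose intervals that factor left as they were. With the cassette factor applied to all types, the PHF20L1 exon remained and no PHF20 row did.

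PHF20 had rows past the threshold in both listed directions. Its 5 rows past the threshold were the most among 3461 gene names with an event of 20 or more reads per library. PHF20 was chosen for these values, so nothing is read from that rank. The 5 rows include the 46 nt and 71 nt forms. With those counted once, its 4 equal the 4 rows of BBX, in which shared reads were not looked for. PHF20 is also among the 6 gene names with 12 or more events at that coverage. Rows past the threshold in both listed directions occurred in 14 of the 33 gene names with at least 2 rows past it, PHF20 included. Cassette exons past it in both directions occurred in 1 gene name, which was not PHF20. Along PHF20, the 2 lower rows past the threshold began within 6.87 kb of the first listed event. The 3 higher rows past it began between 31.2 and 35.6 kb from that event. The split by position holds only for these rows. The 177 nt exon, the retained intron and the other undefined rows lay between these ends, with differences from -0.35 to -15.0 points. The mutually exclusive exons, at 28.1 and 33.0 kb, were higher by 13.7 and 11.5 points. The alternative 5' splice site, at 39.1 kb, had a difference of -11.1 points (-28.1 to -0.633). None of these was past the threshold. The strand is not listed, so which end is upstream is not stated here. Among rows past the threshold, direction goes with event type as well as with position. Both lower rows were undefined and all 3 higher rows were cassette exons. Since undefined rows have no stated isoform structure, their listed direction cannot be set against that of a cassette exon.

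**Figure D4:**
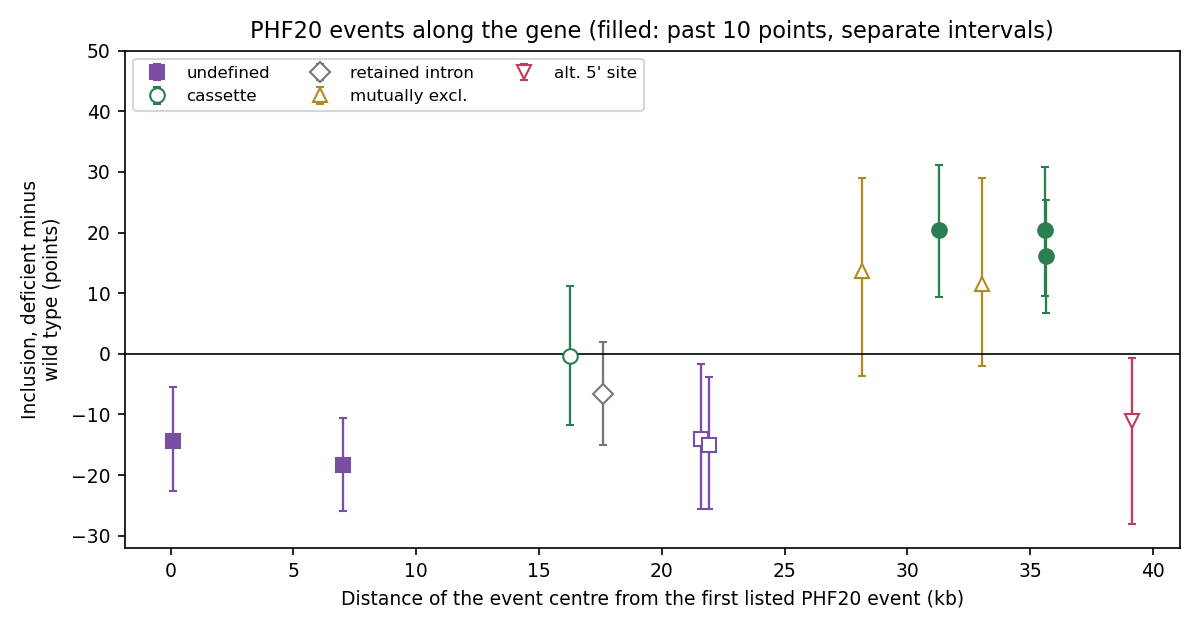
Difference in inclusion (deficient minus wild type, percentage points, y axis) of the 12 PHF20 events against the distance of each event's centre from the first listed event (kb, x axis), with 95% Newcombe intervals and a symbol for each event type. Filled symbols, past 10 points with separate intervals, are below 0 at the left end (-14.4 and -18.4 points) and above 0 towards the right end (20.5, 20.4 and 16.2 points).

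Exons whose length is a multiple of 3 were listed in both paralogues, and PHF20 also had cassette rows of other lengths. The PHF20L1 exon, at 219 nt, is a multiple of 3 and spans 73 codons' length. In PHF20 the 129 nt exon (43 codons' length) and the 177 nt exon (59 codons' length) are multiples of 3, whereas the 46 nt and 71 nt forms are not, and their 25 nt difference is not either. Of the undefined regions, 183 nt and 279 nt are multiples of 3, and 85 nt and 172 nt are not. Among the same 2175 cassette exons, 57.3% (55.2 to 59.4) were multiples of 3, and their median length was 102 nt. The PHF20L1 exon was thus longer than most, and 91 of these exons were both over 200 nt and a multiple of 3. Of those 91, 7 were past the threshold (7.69%, beside 6.57% of all cassette exons). Of the 7, 6 were lower and 1 higher in the deficient library, beside 3.08% lower and 3.49% higher among all cassette exons. The 6 include the PHF20L1 exon, which was chosen for its values, so nothing is read from that balance. The others that were lower were in TBC1D22A (-34.5 points), ARHGAP17 (-28.8), WDR20 (-26.0), BCOR (-22.7) and BOD1L (-13.4), and the higher one was in TP53BP1 (10.1). Whether the PHF20 and PHF20L1 exons are coding, and which protein domain they fall in, was not analysed here.

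As listed, the event reads summed higher for PHF20 and lower for PHF20L1 in the deficient library, by amounts that many genes showed. PHF20 rows summed to 1342 reads in the wild-type and 1698 in the deficient library, a ratio of 1.27 (1.18 to 1.36). PHF20L1 had 281 and 222 reads, a ratio of 0.790 (0.660 to 0.945). Over 3641 gene names with 20 or more event reads per library the median ratio was 1.00, with quartiles of 0.804 and 1.26. The PHF20 ratio was reached or passed by 24.6% of these gene names, and 23.2% were at or below the PHF20L1 ratio. Reads over alternative events are not a measure of gene expression, and rows that share reads count them more than once. The interval of the PHF20 ratio treats all summed reads as separate, so it is too narrow even for counting error. Inclusion of a cassette exon can be read over 2 junctions, so a sum of listed reads depends on the inclusion level itself. The PHF20L1 sum rests on its cassette exon only, and these ratios were not computed with cassette inclusion reads halved. In that exon inclusion reads fell from 241 to 88, while exclusion reads rose from 40 to 134. The direction of its ratio therefore turns on the weight given to inclusion reads. The opposite directions hold only for the counts as listed.

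The cassette exons of other genes nearest to each paralogue in both levels were looked up among exons covered by 100 or more reads per library. For the PHF20L1 exon, none of 968 exons of other genes was within 10 points. That exon was chosen for its levels and had the widest difference at this coverage, so nothing is read from its distance to others. The nearest, 18.8 points away, was a 33 nt exon of EIF4G3, a scaffold of translation initiation, at 69.5% and 49.1%. Also among the nearest were exons of R3HDM1 (70.2% and 50.6%), ARID1B, a subunit of the BAF chromatin remodeller (83.8% and 58.9%), and MTMR14, a phosphoinositide phosphatase (69.0% and 52.3%). For the 129 nt PHF20 exon, 13 of 965 exons were within 10 points. The nearest, 1.99 points away, was a 138 nt exon of the transcription factor MEF2A, at 47.5% and 67.4%. LOC100859792 (48.9% and 64.0%), ELMO1, an activator of Rac (48.2% and 69.5%), CCAR1, a transcriptional coactivator (46.3% and 59.8%), and NFATC3, a calcineurin-dependent transcription factor (47.2% and 59.8%), came next. All the exons named in this comparison were multiples of 3 in length.

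Other readers of methylated lysine were counted in the same way. The list held 74 symbols, some of them older and newer names of the same gene. Of these, 38 had rows, and 33 had an event with enough reads for the threshold. Of their 75 events, 7 in 4 genes were past the threshold, 3 higher and 4 lower (9.33%, beside 5.04% of all events), and their median absolute difference was 2.56 points, beside 2.36 points over all events. TP53BP1, a DNA repair protein with tandem Tudor domains, had rows past the threshold in both listed directions, as did PHF20 and BPTF. The 237 nt cassette exon of TP53BP1 stood at 89.9% (84.4 to 94.0; 169 reads) and 100% (97.6 to 100; 153 reads). Of its 4 alternative 3' splice site rows, 1 was past the threshold, at 44.2% and 14.3% over 43 and 42 reads. Of its 3 alternative 5' site rows, 1 was past it, at 92.8% and 74.7% over 83 and 87 reads. BPTF, whose PHD finger reads trimethylated histone H3, had a 162 nt cassette exon at 26.9% (21.2 to 33.2) and 42.4% (36.2 to 48.8), and an alternative 3' site at 61.2% over 67 reads and 0% over 28 reads (0 to 12.3; the 3-read limit is 10.7%). L3MBTL2, a repressor with MBT repeats, had a 66 nt cassette exon at 30.4% (24.9 to 36.4; 263 reads) and 55.0% (48.2 to 61.8; 218 reads). MBTD1, another MBT-repeat protein, had an alternative 5' site at 100% over 36 reads and 76.2% over 84 reads. For competing sites the table does not state which site counts as inclusion.

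Of the 9 subunits of the NSL complex, 4 had rows under the symbol used: PHF20, KANSL2, KANSL3 and OGT. KIAA1267 is also listed but was not tied to KANSL1 here, so its rows were not counted. Outside PHF20, 5 events had enough reads and 1 was past the threshold (20%, beside 5.04% of all events). It was an alternative 3' splice site of OGT, the enzyme that adds N-acetylglucosamine to nuclear proteins, with sites 30 nt apart (chromosome 4, 2193402 to 2193432). Inclusion there was 41.3% (33.4 to 49.7; 150 reads) in the wild-type and 19.6% (13.6 to 26.8; 153 reads) in the deficient library. A 145 nt cassette exon of OGT stood at 15.9% and 12.5%, and its other 3' site at 4.84% and 1.20%. A 192 nt cassette exon of KANSL3 was nearly level, at 66.8% (62.2 to 71.3; 431 reads) and 69.0% (64.6 to 73.1; 480 reads), and the alternative 5' site of KANSL2 stood at 1.30% and 5.45%, over 77 and 55 reads.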

How the data were processed

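Poly(A) RNA was sequenced in paired-end libraries, per the labels' protocols, with 1 library of each genotype. Per the submitters' processing notes, the tools were TopHat2 2.0.6 and Cufflinks, and the build was galGal4. Neither the event caller nor the test behind the authors' adjusted p-value in the deposited table is given in the sources used here. Values in the deposited table are raw exclusion and inclusion read counts, per the file headers.

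Of 10652 rows, 276 with more than 2 numbers per library and 57 repeats were left out, none of PHF20 or PHF20L1. Levels, exact intervals and counts past the threshold were computed in Python 3.11.15 with NumPy 2.4.6 and SciPy 1.17.1, and drawn with matplotlib 3.10.9. Length is end minus start plus 1, and for alternative sites the distance is end minus start. Listed positions and symbols were used as they stand. No test was run on the members, and with 1 library per genotype the intervals cover counting error only. The genes, lists and rules were chosen with earlier results of these data known. Named genes were all rows of PHF20 and PHF20L1, list members past the threshold and the 5 nearest cassette exons, of which 1 is not reported here. The long exons, the KANSL2 and KANSL3 rows and the other OGT rows were named after their values were seen. Alternatives changed the minimum reads, the minimum difference, the interval condition, the weight of cassette inclusion reads and the handling of shared reads.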

Additional observations from a re-analysis of the deposited data

How the results depend on the processing

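The count of PHF20 and PHF20L1 events past the threshold was 6 of 13. It was also 6 of 13 with a minimum of 10 reads, with cassette inclusion reads halved and with 0.5 read added. It was 6 of 10 with a minimum of 50 reads. It was 3 with a minimum difference of 20 points, 11 with no condition on the intervals, 3 with intervals widened by the inflation of each event type and 1 with all intervals widened by the inflation of cassette exons, which left the PHF20L1 exon. Inflation, over events with large enough expected counts, was 3.97 for cassette exons and 0.162 for undefined events. The first widening therefore does not bear on undefined events. At 20 points the PHF20 differences of -14.4, -18.4 and 16.2 points no longer passed, and with widened intervals those of 20.5, 20.4 and 16.2 points did not, nor, with the cassette factor, those of -14.4 and -18.4 points. Halving moved PHF20L1 to 75.1% and 24.7% (-50.4 points). Over all 6089 events the main count was 307 (5.04%). With a minimum difference of 20 points, no interval condition, and intervals widened by event type in turn, it was 168 (2.76%), 917 (15.1%) and 74 (1.22%). Among the 75 events of methyl-lysine readers, the main count of 7 (9.33%) became 4 (5.33%), 15 (20%) and 1 (1.33%). Among the 17 events of the NSL complex, the main count of 6 (35.3%) became 3 (17.6%), 11 (64.7%) and 2 (11.8%). Of those 6 events, 5 were rows of PHF20, which was chosen for its values. With a minimum of 50 reads, readers had 4 of 50 events (8%). Without PHF20, the NSL complex had 1 of 5 events (20%) at the main settings. The read ratio of PHF20 was 1.26 with each position counted once. The widened intervals, the sets of shared reads and the list without PHF20 were chosen after seeing the data. No paired analysis was possible because each genotype has 1 library. For the same reason no library could be left out, and depth limits the rows with under 50 reads most.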
